A study of Drosophila melanogaster with 12 samples.

Results

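The ping-pong partners of control ovaries were the 1305 Aub-bound and 2088 AGO3-bound small RNA sequences that face each other across a 10 nt overlap. An Aub sequence of 23 to 29 nt was a member when its first 10 nt were the reverse complement of the first 10 nt of an AGO3 sequence of 23 to 29 nt, and those AGO3 sequences were the other side. Both lists came from krimp heterozygous ovaries, the control of the study. Sequences sharing 15 nt with the most abundant 30 nt Aub sequence, which is 2S rRNA, were dropped before pairing, 25 from the Aub and 20 from the AGO3 list. The 1305 members were part of 3158 control Aub sequences and the 2088 part of 11045 control AGO3 sequences. As 342 sequences were members on both sides, there were 3051 distinct members among 95922 distinct sequences of all lengths in the 12 libraries.

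piRNAs are small RNAs that guide Piwi-family proteins to transposon transcripts in the germline. In the ping-pong cycle Aub, guided by a piRNA, cuts a complementary transcript, and the cut makes the 5′ end of a new piRNA that AGO3 takes up. AGO3 then cuts transcripts of the opposite strand in the same way, and Aub takes up the products. Because the cut falls opposite the junction of guide bases 10 and 11, partners overlap by 10 nt at their 5′ ends. A guide that begins with U (1U) therefore faces a partner with A at position 10 (10A). Krimper is a Tudor domain protein found in the perinuclear nuage of germ cells, where Aub and AGO3 meet.

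Of the libraries, 9 came from ovaries of adult Drosophila melanogaster females and 3 from OSC, a cell line derived from the somatic cells of the ovary. From krimp heterozygous ovaries there were total small RNA and the RNA that came down with Piwi, Aub or AGO3. From krimp mutant ovaries there were total, Piwi-bound and Aub-bound small RNA, and no AGO3 library of that genotype was analysed here. AGO3-bound RNA was also sequenced from Oregon R wild-type and from aub mutant ovaries. In OSC, krimp was knocked down and myc-tagged Piwi, Aub or AGO3 was expressed ectopically, then purified with a myc, an Aub or an AGO3 antibody respectively. The sources used here do not give the alleles, the ages of the flies or how the knockdown was made. For the krimp mutant Aub library the source name also holds the word control. It was taken as mutant, from its title and its genotype label. The genotypes and the knockdown could not be checked, since no mRNA was measured.

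Each group had 1 library, so differences between libraries could not be set against a spread between replicates, and no test was run. The files listed between 116014 and 24979879 reads, as counts per distinct sequence, and no sequence with fewer than 100 reads. A sequence that a library does not list may therefore have had up to 99 reads, and the listed totals are not library depths. The exact 95% Poisson interval of 100 reads runs from 81.4 to 122 reads. Intervals cover counting error only, since PCR reads without molecular identifiers are not independent molecules. 2S rRNA took 66.3% of listed reads in control Aub, 53.8% in krimp mutant Aub, 6.30% in control AGO3, 83.0% in Oregon R AGO3 and 93.7% in aub mutant AGO3. Shares of all listed reads move with it, so values per 23 to 29 nt reads without 2S rRNA are given beside them where they differ.

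Between control Aub and AGO3 a 10 nt overlap was more common than any of the longer overlaps. It was shown by 41.3% of control Aub sequences and 18.9% of control AGO3 sequences. Overlaps of 11 to 20 nt, the background, were shown on average by 1.09% of Aub sequences (from 0.158% to 3.01%) and by 0.352% of AGO3 sequences (from 0.0362% to 0.905%). The 10 nt values chose the members and are a description. Weighted by reads, the partners held 57.7% of the 23 to 29 nt Aub reads without 2S rRNA and 34.7% of the AGO3 reads, over background means of 0.910% and 0.520%.

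**Figure D1:**
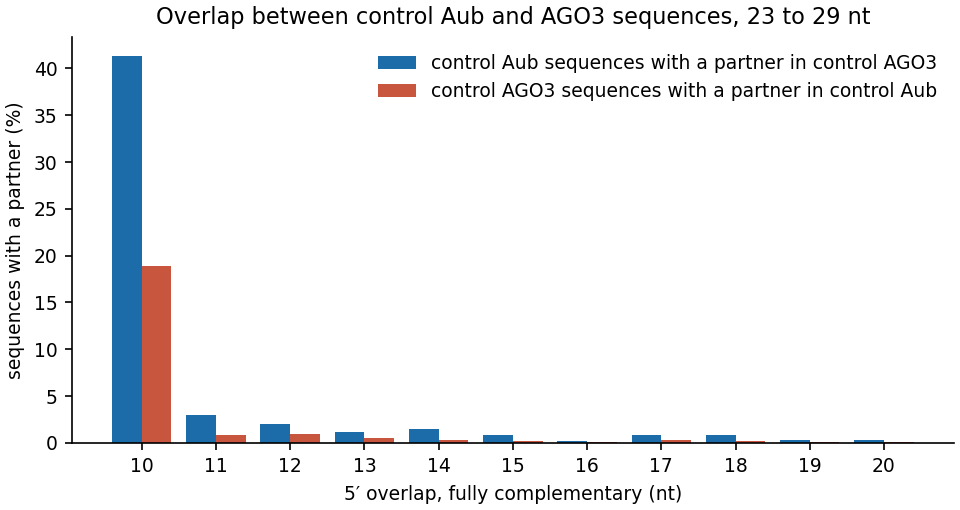
Bars give the percentage of control Aub sequences with an AGO3 partner and of control AGO3 sequences with an Aub partner at each 5′ overlap from 10 to 20 nt. At 10 nt the values are 41.3% and 18.9%, and from 11 to 20 nt none is above 3.01%. The data are 1 library per protein, so the bars have no error.

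The background asks for complementarity over the whole overlap, which chance meets less often as the overlap grows. When only 10 nt had to match at each offset, the background means were 1.69% and 0.559%, which left the 10 nt values 24.4 and 33.8 times higher.

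The members fell on 492 sites, a site being a 10 nt start and its complement. They formed 5039 pairs of sequences. At 415 sites the pairing ran in a single direction, from an Aub strand to the opposite AGO3 strand, and at 77 sites it also ran the other way. A single direction of pairing does not mean a single listed strand. Control AGO3 listed members of both strands at 346 of the 492 sites, and control Aub at 102. Each side had 569 starts. A start held a median of 2 Aub members, at most 17, and a median of 2 AGO3 members, at most 77. Members of 1 start share at least their first 10 nt and are not independent of each other. On the Aub side 267 starts had 1 member, and on the AGO3 side 183 did.

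Reads were spread unevenly over the starts. Aub reads per start ran from 100 through a median of 359 to 128086, and AGO3 reads from 100 through 704 to 360352. The number of Aub reads of a start said little about the number of AGO3 reads of its partner start (Spearman rho 0.0988 across 569 starts). For the same start in both proteins rho was 0.385 over the 449 starts that both listed. These are descriptions across starts of 2 libraries. Near the read minimum, 118 Aub and 151 AGO3 members had at most 110 reads. Just outside the overlap that defines them, 69 further Aub sequences matched over 9 nt.

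Partners carried the base signature of their protein more often than the remaining sequences of the same library. Of Aub-side members 78.4% began with U (exact 95% interval 76.1 to 80.6), against 68.9% (66.7 to 71.0) of control Aub sequences without a partner. Of AGO3-side members 80.1% had A at position 10 (78.3 to 81.8), against 69.4% (68.4 to 70.4) of AGO3 sequences without a partner. Length variants of 1 start make these intervals too narrow. By reads, the Aub side was 81.5% 1U and the AGO3 side 84.5% 10A. By the pairing rule U at position 1 of one side is A at position 10 of the other, so the 1U share of Aub and the 10A share of AGO3 are the same base pair seen from both strands. Control AGO3 sequences without a partner were mostly 10A too, so choosing Aub sequences by a match to AGO3 favours 1U. In the same way a match to Aub, which is mostly 1U, favours 10A on the AGO3 side. The gaps to sequences without a partner are therefore favoured by the rule and are a description.

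Within a side the rule does not tie 1U to 10A. Across the sides, 10A of Aub and 1U of AGO3 are again the same base pair seen from both strands. Aub-side members had A at position 10 in 41.9% of sequences and other Aub sequences in 40.8%. AGO3-side members began with U in 34.1% and other AGO3 sequences in 40.4%. The 342 sequences that were members on both sides carried both marks often, with 67.8% 1U and 64.0% 10A. Members of the Aub side only were 82.1% 1U and 34.1% 10A, and members of the AGO3 side only were 27.5% 1U and 83.3% 10A.

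G and C content of partners and other sequences was similar. Positions 2 to 9 were 40.8% G or C in Aub-side members and 39.6% in other Aub sequences. After position 10, where partners do not overlap, the values were 53.1% and 52.8%. On the AGO3 side the values after position 10 were 51.4% for members and 49.9% for the others.

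Of the 492 sites, 311 had U at position 1 on just 1 strand, so that strand could be called the 1U strand and the other the 10A strand from sequence alone. At 235 of these 311 sites the pairing was only of Aub on the 1U strand with AGO3 on the 10A strand. The reverse, with Aub on the 10A strand and AGO3 on the 1U strand, occurred at 30 sites, and both arrangements at 46. These counts give the direction of pairing. Control AGO3 itself listed members of both strands at 211 of the 311 sites, and control Aub at 61. A further 129 sites had U at position 1 on both strands and 52 on neither. The 1U strand is defined by its bases and does not say which strand is sense to a transposon, since the sequences were not matched to a genome.

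AGO3 members were shorter than Aub members. Their mean length by reads was 24.9 nt against 25.5 nt, and the most common length was 24 nt for AGO3 (26.4% of reads) and 25 nt for Aub (27.8%). The difference also held within the same 5′ end. Over the 522 Aub-side starts of 20 nt that both libraries listed, at all listed lengths, the mean length was 24.5 nt in AGO3 and 25.3 nt in Aub, a mean difference of -0.805 nt (SD 1.01 across starts). AGO3 was shorter at 387 of these starts, longer at 35 and equal at 100.

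Starts without a partner showed it as well. Among those of control Aub the mean difference was -0.682 nt (SD 1.04) over 792 starts. Piwi carried longer forms than Aub, by a mean of 0.563 nt (SD 0.930) over 284 Aub-side starts and 0.476 nt (SD 0.870) over 675 starts without a partner. Aub of krimp mutant ovaries held slightly shorter forms than control Aub, with a mean difference of -0.272 nt (SD 0.682) over 195 Aub-side starts, shorter at 120 and longer at 32. For Aub starts without a partner that difference was -0.136 nt (SD 0.526) over 262 starts. All these differences were smaller than or close to the SD across starts.

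**Figure D2:**
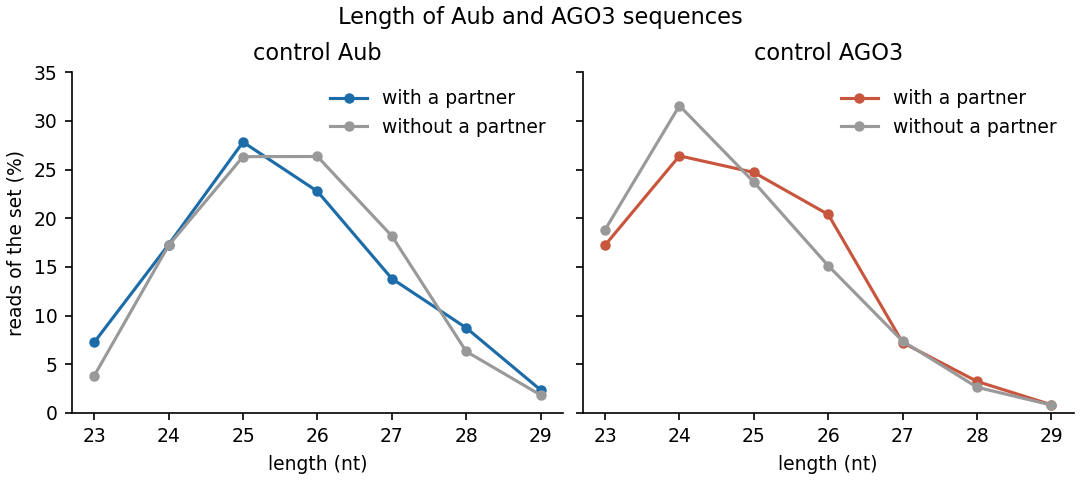
Lines give the percentage of reads at each length from 23 to 29 nt for control Aub (left) and control AGO3 (right), for sequences with and without a 10 nt partner in the other library. The Aub partners peak at 25 nt with 27.8% of reads and the AGO3 partners at 24 nt with 26.4%.

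Aub and AGO3 shared many members. Of the 1305 Aub-side members 824 (63.1%) were also listed in control AGO3, against 60.1% of all 3158 control Aub sequences. Of the 2088 AGO3-side members 394 (18.9%) were also listed in control Aub, against 17.2% of all 11045 control AGO3 sequences. The lists differ in length, which favours matches to AGO3.

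Total small RNA of control ovaries listed partners about as often as the other sequences of each list. It listed 1107 Aub-side members (84.8%, against 85.6% of all control Aub sequences) and 1021 AGO3-side members (48.9%, against 47.2%). Aub-side members held 12.5% and AGO3-side members 7.83% of its 23 to 29 nt reads without 2S rRNA. Both sides were listed at 305 of the 492 sites. Of the 10 nt pairs of sequences 41.8% were complete, and of the 11 to 20 nt pairs 38.7%.

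Piwi, the nuclear member of the family that is not held to take part in ping-pong, listed partners less often than the rest of each list. Control Piwi listed 393 Aub-side members (30.1%) against 816 (44.0%) of the 1853 Aub sequences without a partner, with 38.3% over all control Aub sequences. It listed 165 AGO3-side members (7.90%) against 13.3% of AGO3 sequences without a partner, with 12.3% over all. Among sequences with at least 500 reads in their source library the gap was smaller, at 61.1% of 265 Aub members against 68.6% of 210 others. Of the AGO3 sequences with at least 500 reads, 15.7% of members and 18.4% of others were listed. Of the members of the AGO3 side only, 46 of 1746 were listed. Both sides of a site were listed together in control Piwi at 22 of the 253 sites where it listed any member. Counted as pairs of sequences, 1.91% of 10 nt pairs and 1.87% of 11 to 20 nt pairs were complete there.

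**Figure D3:**
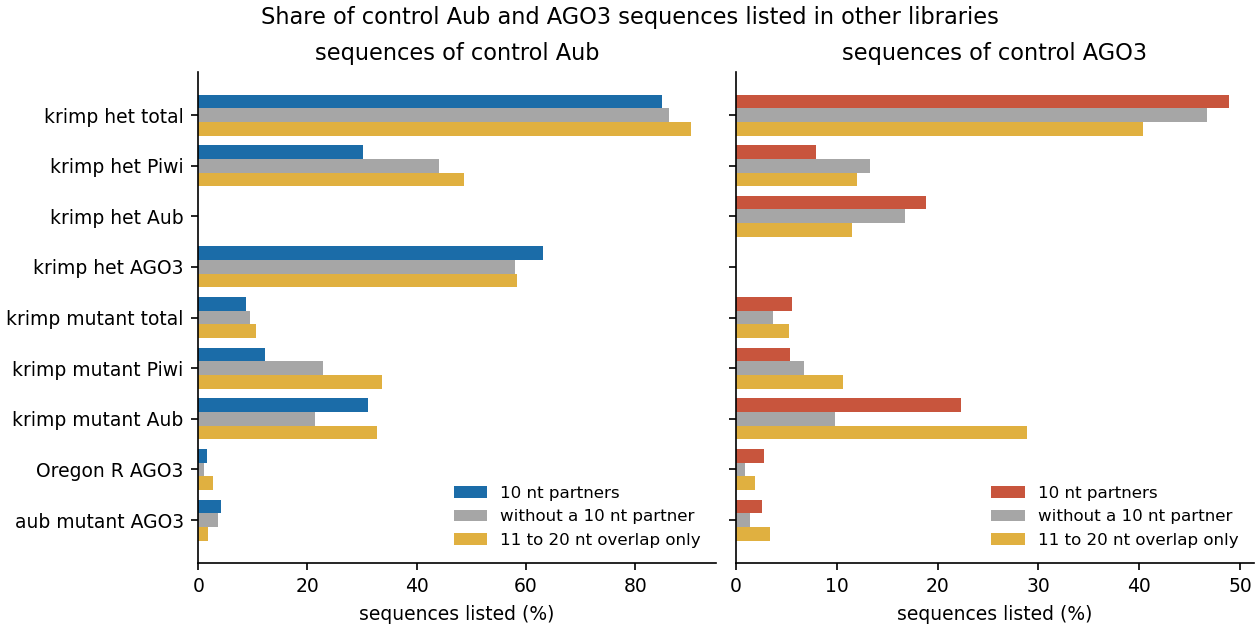
Bars give the percentage of control Aub sequences (left) and control AGO3 sequences (right) that each other ovary library lists, for members with a 10 nt partner, for sequences without one, and for sequences that overlap by 11 to 20 nt only. In control Piwi 30.1% of Aub-side members and 44.0% of other Aub sequences are listed, and in krimp mutant Aub 31.0% and 21.3%.

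In Aub of krimp mutant ovaries, partners were listed more often than other sequences of the same source. The library listed 405 Aub-side members (31.0%), against 25.3% of all control Aub sequences and 21.3% of those without a partner. It listed 467 AGO3-side members (22.4%), against 12.2% of all control AGO3 sequences and 9.78% of those without a partner. The gap was also present among sequences with at least 500 reads, at 54.7% against 34.8% on the Aub side and 41.1% against 19.5% on the AGO3 side. It was not particular to the 10 nt overlap. Of the sequences that overlapped by 11 to 20 nt only, 32.7% of 113 Aub sequences and 28.8% of 208 AGO3 sequences were listed too.

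In the 23 to 29 nt reads of Aub, the AGO3 side as a whole differed little between the genotypes. It held 26.6% of the 23 to 29 nt reads without 2S rRNA in control Aub, with 394 members listed, and 29.7% in mutant Aub, with 467 listed. The Aub side held 57.7% and 26.6%, where the control value is high by construction. By class, members of the Aub side only held 33.0% in control and 6.51% in mutant Aub, members of both sides 24.7% and 20.1%, and members of the AGO3 side only 1.85% and 9.63%. As shares of all listed reads the Aub-only members held 10.8% and 2.91%, and the AGO3-only members 0.608% and 4.297%. On that scale the AGO3 side as a whole differed more, with 8.74% in control and 13.3% in mutant Aub. The classes are fixed by control Aub. An AGO3-side sequence that control Aub listed with a partner counts as a member of both sides, so the AGO3-only class is low in control Aub by construction, at 52 of 1746 listed against 261 in mutant Aub. In shares of reads from whole ovaries, fewer cells of a type and less RNA per cell cannot be told apart.

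Single members were compared by their share of all listed reads, with a 2-fold difference taken as the mark. Among the 405 Aub-side members listed in both Aub libraries, 130 were at least 2-fold higher in the mutant (32.1%) and 102 at least 2-fold lower (25.2%). Over all 800 sequences listed in both, which include these 405, 33.2% were higher and 24.2% lower. The Aub side as a whole was close to this background, of which it is a large part. It was made of classes that differed from each other. Of the 199 Aub-only members 20.1% were higher and 32.7% lower, with a median log2 ratio of -0.23, and of the 206 members of both sides 43.7% were higher and 18.0% lower, with a median of 0.70. Among the 241 AGO3-side members listed in both, 109 were higher (45.2%) and 42 lower (17.4%), and 206 of these 241 were the members of both sides. Median log2 ratios of mutant over control were 0.18 for all sequences, 0.18 for the Aub side and 0.74 for the AGO3 side.

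The direction of these counts depended on the read minimum. A sequence close to 100 reads in control Aub leaves the list when it is lower in the mutant, and so is seen mainly when it is higher. Among sequences with at least 500 reads in control Aub, 23 of 145 Aub-side members were higher and 69 lower, and 22 of 78 AGO3-side members were higher and 29 lower. Over all 218 such sequences, which include these members, 21.1% were higher and 49.1% lower. Sequences without a partner were not counted alone, so the gap of members to them may differ from the gap to this background. The medians were then -0.92 for the Aub side, -0.43 for the AGO3 side and -0.96 for all, so both sides turned from higher to lower.

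These counts leave out members listed in 1 Aub library. Mutant Aub did not list 900 of the 1305 Aub-side members (69.0%), against 74.7% of all control Aub sequences. When given 99 reads, the most they could have, 589 of the 900 (65.4%) would be at least 2-fold lower in the mutant, against 62.7% of all unlisted ones. Among unlisted sequences this share was close to that of the whole list, members included, although members were unlisted less often. In the other direction 226 AGO3-side members were listed in mutant and not in control Aub, and 98 of them (43.4%) were at least 2-fold higher when control was given 99 reads, against 29.1% of all sequences listed in mutant Aub alone. Per 23 to 29 nt reads without 2S rRNA the picture of the listed members shifted down, with 91 higher and 137 lower on the Aub side and 81 higher and 57 lower on the AGO3 side. The background on that scale was 24.9% higher and 33.6% lower, and the medians were -0.26 for both all sequences and the Aub side, and 0.29 for the AGO3 side.

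At the 311 sites with a 1U and a 10A strand, most Aub reads lay on the 1U strand in control and on the 10A strand in the mutant. In control Aub 76.6% of member reads lay on the 1U strand, over all 311 sites, and in control AGO3 18.0% did. In krimp mutant Aub 19.5% did (exact 95% interval 19.3 to 19.6), over the 74 sites where it listed a member. Over the same 74 sites the control Aub value was 70.9% (70.7 to 71.1) and the control AGO3 value 13.7%. The 10A strand of these sites held 56026 reads in control and 340029 in mutant Aub, or 14024 and 63196 per 1000000 listed reads. The 1U strand held 136483 and 82123 reads, or 34162 and 15263 per 1000000 listed reads. Control Aub and AGO3 chose the sites, so their values are a description, and the mutant value is set against them over the same sites.

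Few sites carried much of the mutant reads. The 5 largest sites held 64.0% of the mutant Aub reads at these sites, and 3 sites held more than 50 percent of them. Without the 5 largest the 1U strand share was 42.1% in mutant and 79.5% in control Aub. Site by site the shift was therefore less uniform than in the sum. At 33 of the 74 sites the mutant value lay over 10 points below control, at 6 over 10 points above and at 35 within 10 points, with a median difference of -3.80 points. At 18 sites both libraries listed only the 1U strand, and at 5 sites control listed only the 1U strand and mutant only the 10A strand. The remaining 237 of 311 sites had no member listed in mutant Aub.

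**Figure D4:**
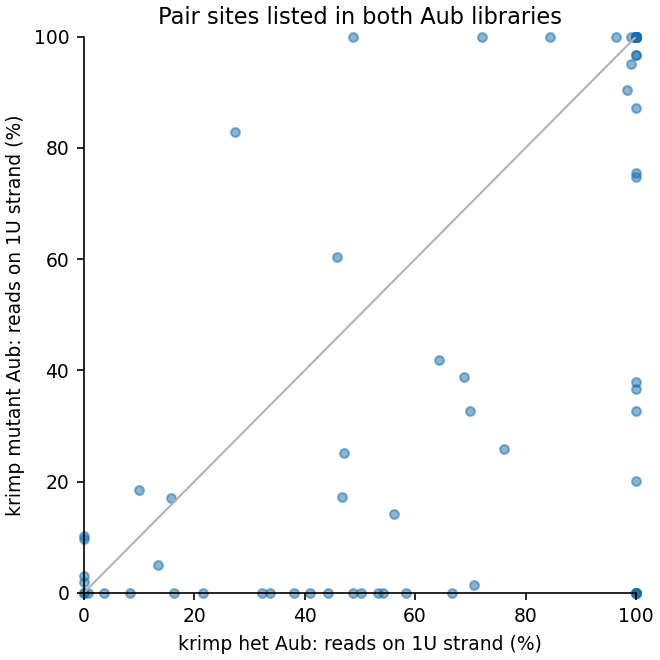
Each point is 1 of the 74 pair sites with members listed in both Aub libraries. The x axis gives the percentage of control Aub reads and the y axis the percentage of krimp mutant Aub reads on the 1U strand, and the line marks equal values. At 41 sites the mutant value is below control, at 13 above and at 20 equal, and 18 sites lie on top of each other at 100% on both axes.

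Outside these sites the shift was smaller. Among 23 to 29 nt reads that carried 1U without 10A or 10A without 1U and lay outside the 311 sites, 1U reads were 79.3% in control Aub and 57.6% in mutant Aub. The same measure in control AGO3 was 20.4%. The 1U strand share of the sites also differed in other libraries. It was 93.2% in control Piwi (151 sites), 81.3% in mutant Piwi (67 sites), 61.7% in control total RNA (304 sites) and 17.4% in mutant total RNA (28 sites). These sets of sites differ. Restricted to the 74 sites with members in both Aub libraries, the values were 92.5%, 82.6%, 51.8% and 17.4% in the same order. As a median over sites it was 100% in both Piwi libraries. The values rest on identical members. With every sequence that shares a 10 nt start they were 94.6%, 87.0%, 64.4% and 81.5%, so the direction in total RNA turned.

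**Figure D5:**
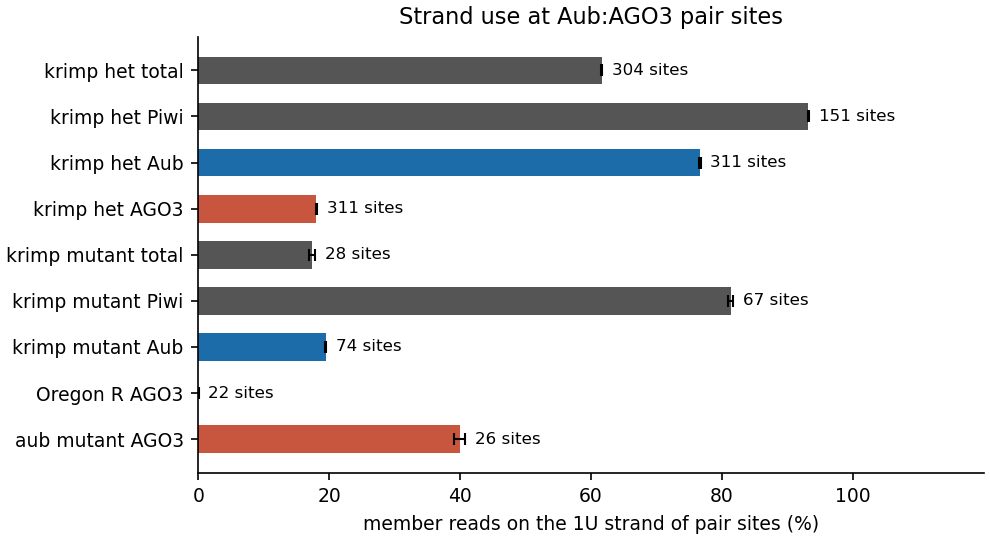
Bars give the percentage of member reads on the 1U strand of the pair sites in each ovary library, with exact 95% binomial intervals for counting error, and labels give the number of sites with a listed member. Control Aub reaches 76.6%, control AGO3 18.0% and krimp mutant Aub 19.5%.

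Both sides of a site were listed together within mutant Aub at 68 of the 155 sites where it listed any member (43.9%). At the same 155 sites control Aub listed both sides at 67 (43.2%). Over all 492 sites control Aub listed both sides at 102 (20.7%) and control AGO3 at 346 (70.3%). Counted as pairs of sequences, 21.3% of the 5039 pairs were complete in mutant Aub, close to the 18.2% of 747 pairs with an 11 to 20 nt overlap.

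The 10 leading pairs, ranked by the product of their Aub and AGO3 read shares, were mostly led by 1U on the Aub side and 10A on the AGO3 side. The most abundant Aub member began with U in 9 of 10 pairs and the most abundant AGO3 member had A at position 10 in 9 of 10. By the pairing rule these are the same base pair, so the AGO3 count follows from the Aub count. The same holds for 10A on the Aub side and 1U on the AGO3 side, each in 4 of 10 pairs. Of the 7 leading Aub members that mutant Aub listed, all 7 had a lower share there than in control Aub. Of the 5 leading AGO3 members listed in both Aub libraries, all 5 had a higher share in the mutant. This held per 23 to 29 nt reads too, with mutant-over-control ratios of 0.0115 to 0.671 for Aub and 1.06 to 3.42 for AGO3 leaders. The Aub leaders were picked for their reads in control Aub, which favours a lower value elsewhere.

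Pair 1 had 12 Aub and 11 AGO3 members. Its leading Aub member, 25 nt with 1U, had 12425 reads in control Aub, 9836 in control AGO3, 864 in control Piwi and 7639 in control total RNA. In krimp mutant ovaries it had 3151 reads in Aub and 304 in Piwi and was not listed in total RNA. That is a share of 3110 per 1000000 listed reads in control and 586 in mutant Aub. Its leading AGO3 member, 23 nt with 10A, had 18554 reads in control AGO3, 174 in control Aub, 3345 in control total RNA and 337 in mutant Aub. Neither was listed in Oregon R or aub mutant AGO3.

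In pair 2 the AGO3 partner had a higher share in mutant than in control Aub. Its leading AGO3 member, 25 nt with 10A, had 50043 reads in control AGO3, 4864 in control Aub and 30367 in mutant Aub. Its share of Aub reads was 1217 per 1000000 listed reads in control and 5644 in the mutant. It had 386 reads in control and 630 in mutant Piwi, and 11545 in control and 2100 in mutant total RNA. The leading Aub member of the pair, 25 nt with 1U, had 3951 reads in control Aub, 1451 in control AGO3 and 3704 in mutant Aub, or 989 and 688 per 1000000 listed reads in control and mutant Aub. Its 2 leading members had similar reads in control Aub, and in mutant Aub the one with 10A had more.

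Pair 3 was low in mutant Aub. Its leading Aub member, 23 nt with 1U, had 6929 reads in control Aub, 10367 in control AGO3, 1434 in control Piwi and 48070 in control total RNA. In the mutant it had 146 reads in Aub, 402 in Piwi and was not listed in total RNA. Its AGO3 partner, 23 nt with 10A, had 23790 reads in control AGO3 and 3994 in control total RNA and was listed in no other library.

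Pair 9 joined an abundant AGO3 sequence to an Aub sequence of few reads. The AGO3 member, 25 nt with 10A and 1 of 36 on its start, had 144100 reads in control AGO3, 4410 in control Aub and 15784 in control total RNA. It had 8574 reads in mutant Aub, or 1594 per 1000000 listed reads against 1104 in control Aub. It was the only one of the 20 leading members listed in Oregon R AGO3, with 190 reads. Its single Aub partner, 23 nt, had 215 reads in control Aub and 479 in control AGO3.

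Pairs 4 and 5 followed pair 2. The leading AGO3 member of pair 4, 25 nt with 10A, had 13218 reads in control AGO3, 964 in control Aub and 4008 in mutant Aub, or 241 and 745 per 1000000 listed reads in control and mutant Aub. Its leading Aub member, 28 nt with 1U, had 2236 reads in control Aub and 2667 in mutant Aub, or 560 and 496 per 1000000 listed reads. The leading AGO3 member of pair 5, 25 nt with both 1U and 10A, had 34510 reads in control AGO3, 467 in control Aub and 1534 in mutant Aub. In both pairs the AGO3 leader had the higher share in mutant Aub and the Aub leader the lower one.

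Pair 8 was closer to pair 3. Its leading Aub member, 25 nt with 1U and 10A, had 8450 reads in control Aub, 15125 in control AGO3, 2153 in control Piwi and 18717 in control total RNA. In the mutant it had 591 reads in Aub, 989 in Piwi and 157 in total RNA. Its AGO3 partner, 24 nt with 1U and 10A, had 1626 reads in control AGO3 and 580 in control total RNA and was not listed in either Aub library.

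In the 6 pairs other than pairs 1, 2, 3 and 9, leading Aub members had 1065 to 8804 reads in control Aub and leading AGO3 members 1309 to 34510 in control AGO3. Pairs 7 and 10 were not listed in mutant Aub on either side. In pairs 5, 6 and 8 the leading members of both sides had 1U and 10A. Pair 10 was the exception to 1U on the Aub side, with 10A and no 1U there and 1U on the AGO3 side.

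The members with the largest gains and losses between the Aub libraries mostly differed in their bases. The 3 Aub-side members with the largest gain all had 10A, the smallest of these gains together with 1U, and the 3 with the largest loss all had 1U without 10A. On the AGO3 side the 3 gains had 10A without 1U. The smallest of the 3 AGO3-side losses had neither mark, and the others had 1U without 10A. Several were the same sequences as on the Aub side, its largest gain included. The largest gain of the Aub side was a 25 nt sequence with 10A and no 1U, from 426 reads in control to 17271 in mutant Aub, 30.1-fold in share, with 4801 reads in control AGO3. On the AGO3 side the largest gain was a 24 nt sequence with 10A, from 366 to 18661 reads in Aub, 37.9-fold, with 15877 reads in control AGO3 and none listed in Piwi. The largest loss on either side was the leading Aub member of pair 3, 63.9-fold lower in share. These members were picked for their size of difference, so the values are a description.

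In Piwi, the median Aub-side member had a lower share in the mutant and the median of all sequences a higher one. Of the 145 Aub-side members listed in both Piwi libraries, 12 were at least 2-fold higher in share and 44 at least 2-fold lower. Over all 16896 sequences listed in both, 40.4% were higher and 18.6% lower. Most of these were not control Aub sequences, and folds of Aub sequences without a partner are not given. The difference can therefore not be called particular to partners. The median log2 ratio was -0.59 for the Aub side and 0.60 for all sequences. On the AGO3 side 13 of 84 were higher and 22 lower, with a median of -0.40. Per 23 to 29 nt reads without 2S rRNA, 18 Aub-side members were higher and 34 lower, over a background of 47.8% and 14%. On that scale the AGO3 side turned, with 17 members higher and 15 lower and a median of -0.10. The 14 members of the AGO3 side only had a median of 0.31 per listed read. Mutant Piwi did not list 248 of the 393 Aub-side members that control Piwi listed (63.1%), close to the 64.9% over all control Piwi sequences. It listed 159 Aub-side members in all, or 12.2%, against 18.4% of all control Aub sequences, and 112 AGO3-side members, or 5.36%, against 6.52%. These libraries played no part in choosing the members, although the members were taken from the same control ovaries.

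Total small RNA of the mutant held few partners. It listed 114 Aub-side members (8.74%, against 9.18% of all control Aub sequences) and 117 AGO3-side members (5.60%, against 4%). Aub-side members held 0.461% of its 23 to 29 nt reads without 2S rRNA, against 12.5% in control total RNA, and AGO3-side members 0.497% against 7.83%. Of the 114 Aub-side members listed in both total libraries, 112 were at least 2-fold lower and none at least 2-fold higher, against 19% lower and 40.1% higher over all 4691 sequences listed in both. Per 23 to 29 nt reads without 2S rRNA 108 were lower and none higher, over a background of 16.4% and 43%. The median log2 ratio was -3.15 for the Aub side, -2.53 for the AGO3 side and 0.46 for all. Members of the AGO3 side only were less uniform, with 23 of 42 lower, 2 higher and a median of -1.26. Mutant total RNA did not list 993 of the 1107 Aub-side members that control total RNA listed (89.7%), against 81.3% of all control total sequences. Control and mutant total RNA listed 84.8% and 8.74% of Aub-side members, and 86.1% and 9.50% of Aub sequences without a partner. For AGO3 the values were 48.9% and 5.60% of members, and 46.8% and 3.63% of the others. The drop in listing was therefore shared by sequences without a partner. Folds are not given for those sequences alone.

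Few partners were listed in the other AGO3 libraries. AGO3 of aub mutant ovaries listed 55 AGO3-side members (2.63%, against 1.67% of all control AGO3 sequences) and 54 Aub-side members (4.14%, against 3.83%). Oregon R AGO3, the wild-type control, listed 58 AGO3-side (2.78%, against 1.27%) and 21 Aub-side members (1.61%, against 1.23%). AGO3-side members held 13.9% of the 23 to 29 nt reads without 2S rRNA in Oregon R and 7.04% in aub mutant AGO3, and Aub-side members 5.86% and 6.38%. Both lists were short, with 396 and 712 such sequences, and mostly 2S rRNA by reads.

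At the sites with a 1U and a 10A strand, Oregon R AGO3 listed members of the 10A strand only, at 22 sites with 7829 reads. In aub mutant AGO3 the 1U strand held 39.9% of 12267 reads (exact 95% interval 39.1 to 40.8) over 26 sites. Of these 26 sites 8 had only the 1U strand listed, 12 only the 10A strand and 6 both. The libraries also differed outside the sites, where 1U reads were 49.4% of reads with either mark alone in aub mutant and 17.5% in Oregon R AGO3. Both sides of a site were listed at 11 of 40 sites in aub mutant and at 1 of 33 in Oregon R AGO3. As pairs of sequences, 0.635% of 10 nt and 0.535% of 11 to 20 nt pairs were complete in aub mutant AGO3, and 0.0794% and 0.803% in Oregon R AGO3. Only 14 AGO3-side and 8 Aub-side members were listed in both libraries. Per listed read 11 and 7 of these were at least 2-fold lower in aub mutant and none at least 2-fold higher, against 77.7% and 3.88% of all 103 sequences listed in both. Per 23 to 29 nt reads without 2S rRNA 7 and 5 were lower and 2 and 0 higher, against 45.6% and 13.6%. With krimp heterozygous AGO3 as the control, the direction depended on the denominator. Per listed read 25 of 55 AGO3-side members were lower and 10 higher, and 30 of 46 Aub-side members lower and 4 higher, over a background of 32.6% and 22.8%. Per 23 to 29 nt reads 2 and 3 were lower and 45 and 33 higher, over a background of 2.72% and 89.1%. 2S rRNA differed between these libraries, at 93.7% and 6.30% of listed reads, and its part in the result was not tested.

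The OSC libraries held 1 of the 3051 members. It was an Aub-side member in the myc-Aub library with 115 reads, and myc-Piwi and myc-AGO3 listed no member. Of all control Aub sequences these libraries listed 0.158% (myc-Piwi), 0.507% (myc-Aub) and 0.348% (myc-AGO3), and of all control AGO3 sequences 0.0453%, 0.145% and 0.109%. The OSC lists were short, with 836 (myc-Piwi), 559 (myc-Aub) and 569 (myc-AGO3) sequences of 23 to 29 nt without 2S rRNA. In myc-AGO3 2S rRNA took 45.7% of listed reads. OSC are somatic, while Aub and AGO3 are proteins of the germline. The part of cell type or of list length in the low counts was not tested.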

How the data were processed

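The authors deposited, for each of the 12 libraries, read counts per distinct sequence, as whole numbers that were not normalized. The lowest count in any file was 100, and listed lengths ran from 20 to 30 nt. RNA was size-selected on gels and prepared with Illumina's TruSeq kit for small RNA, per the labels' protocols. The genome build was dm3, per the submitters' processing notes. The aligner, the adapter trimmer and any filter on genome matches: not given in the sources used here.

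Groups came from the sample titles. Pairing required complementarity of the first 10 nt between 23 to 29 nt sequences, and the background required it over the first 11 to 20 nt. Reads were compared as shares of all listed reads, and alternatively of 23 to 29 nt reads without 2S rRNA. With 1 library per group no test was run. Intervals are exact (Clopper-Pearson or Poisson) at 95%. The leading pairs were the 10 with the largest product of Aub and AGO3 read shares, each shown by its most abundant member per side, and the extreme members were the 3 largest gains and losses per side in mutant Aub, 1 per start. Sequences were not matched to transposons or genes, and RNAs other than 2S rRNA were not removed. The members and the sequence features examined were chosen with earlier results of these data known. The 1U strand measure and its alternatives, and the minimum of 500 reads, were chosen after seeing the data. The pairing functions were checked on simulated data. Python 3.11.15, numpy 2.4.6 and scipy 1.17.1 were used.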

Additional observations from a re-analysis of the deposited data

How the results depend on the processing

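No paired analysis was possible because each group had 1 library. Every share here rests on 1 library and a read minimum, so members near 100 reads can drop out by chance of sampling. Under the alternatives 31 values that answer a comparison stayed and 57 moved, a share counting as moved outside its 95% counting interval and a count beyond 1.5 times. The balance of higher and lower members turned with the denominator for the Aub side in mutant Aub, the AGO3 side in mutant Piwi and both sides in aub mutant AGO3 against krimp heterozygous AGO3. It turned for both sides in mutant Aub at 500 or more control reads. The share of sequences with a partner was 34.1% (Aub) and 12.3% (AGO3) at 200 or more reads, 20.8% and 19.8% among the 2500 most abundant, 57.7% and 34.7% by reads, and 5.29% and 25% with Oregon R AGO3. With each sequence counted alone, 1U and 10A were 78.4% and 41.9% on the Aub side and 34.1% and 80.1% on the AGO3 side, and at 200 or more reads 81.9%, 52.8%, 24.5% and 84.7%. The 1U strand share without the largest site was 74.4% in control Aub, 22.0% in control AGO3, 24.6% in mutant Aub and 38.4% in aub mutant AGO3. As a median over sites it was 100%, 17.8%, 32.7% and 29.1%. With any sequence of the same 10 nt start it was 19.0% in control AGO3, 19.7% in mutant Aub, 1.24% in Oregon R AGO3 and 44.5% in aub mutant AGO3, and 81.5% in place of 17.4% in mutant total RNA. Over the sites shared by both Aub libraries it was 70.9% in control Aub, 13.7% in control AGO3 and 38.2% in aub mutant AGO3, and without the 5 largest sites 42.1% in mutant Aub. In mutant Aub the Aub side held 26.6% and the AGO3 side 29.7% of 23 to 29 nt reads, and without members of both sides 2.91% and 4.297% of listed reads. Of members with at least 500 reads it listed 54.7% and 41.1%. At 4-fold, mutant Aub had 54 Aub-side members higher and 47 lower, and 53 and 17 on the AGO3 side; Piwi had 4, 15, 4 and 7; and total RNA had 0 AGO3-side members higher. With at least 500 control Aub reads 23 Aub-side members were higher and 69 lower, and 22 and 29 on the AGO3 side. With unlisted members at 99 reads 691 and 144 were lower. In aub mutant AGO3, krimp heterozygous AGO3 as control gave 4 higher and 30 lower on the Aub side and 10 and 25 on the AGO3 side, and per 23 to 29 nt reads 2 and 7 AGO3-side members. The cause of these moves was not tested, except that stricter marks pass fewer members by construction.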
